A study of Drosophila melanogaster with 2 samples.

Results

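The microRNA genes of Drosophila melanogaster were examined for occupancy by Hr83, a nuclear receptor of the NR2E group with no known ligand. They were taken from the Ensembl annotation as all genes whose symbols start with mir-, together with bantam and let-7, and they numbered 262 of 17873 annotated genes. Of these, 260 lay on the main chromosomes and 2 on an unplaced sequence of ribosomal DNA, which was left out. Hairpins of 1 strand whose neighbours lay at most 10 kb apart were counted as 1 locus, which gave 203 loci. There were 181 loci of 1 gene, and 22 clusters held the other 79 genes, with up to 12 hairpins in a cluster. For 175 loci a host gene, coding or long noncoding, contained at least 1 hairpin, and in 5 of these, all clusters, other hairpins lay outside any host. The remaining 28 loci, with no hairpin wholly inside such a gene, were counted as intergenic. The annotated hairpins were 50 to 174 bp long, with a median of 92 bp.

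Hr83-GFP larvae were the sole group, with biological replicates numbered 3 and 4. Untagged larvae were not analysed here. The transgenic line stably expressed Hr83 with GFP fused to its C-terminus, and larvae of unstated age and pooled sexes were taken whole in the wandering stage of their last instar. An anti-GFP antibody pulled down the sonicated chromatin for sequencing (ChIP-seq), and nothing says how the replicates were obtained beyond their numbers. The authors' lists give regions with a summit and a signal, which is their own score of peak strength, but no number of reads, and how deeply each library was sequenced is unknown. Whole larvae mix all tissues, and the cell types in which the tagged receptor was found cannot be told apart.

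A microRNA is cut from a hairpin in a longer primary transcript by the nuclear Drosha complex, and Dicer then releases the mature strand, which guides an Argonaute protein to messenger RNAs that pair with its seed. The hairpin may lie in a long noncoding RNA that serves as its primary transcript, in an intron of a protein-coding gene, or, as a mirtron, in a short intron whose splicing replaces the Drosha cut. A microRNA hosted on its own strand can be transcribed from the promoter of its host, often far from the hairpin. In flies, microRNAs hold back cell death, tune insulin and fat metabolism, and time the larval moults and metamorphosis together with the steroid ecdysone.

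The mature strands below belong to microRNAs at which the results turn, and they are shown to tell apart members that share a seed. The capitals mark the seed, bases 2 to 8. All are read 5′ to 3′ from the RefSeq genome, Release 6 (dm6), by the RefSeq positions of the arms.
miR-279-3p: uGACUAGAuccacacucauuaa
miR-996-3p: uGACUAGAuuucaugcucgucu
bantam-3p: uGAGAUCAuuuugaaagcugauu
let-7-5p: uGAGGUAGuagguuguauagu
miR-275-3p: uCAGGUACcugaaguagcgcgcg
miR-305-5p: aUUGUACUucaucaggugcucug
miR-375-3p: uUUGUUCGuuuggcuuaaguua
miR-282-5p: uAGCCUCUacuaggcuuugucugu
miR-34-5p: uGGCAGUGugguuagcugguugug
miR-277-3p: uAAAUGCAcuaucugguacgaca
miR-995-3p: uAGCACCAcaugauucggcuu
miR-92a-3p: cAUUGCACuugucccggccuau
miR-92b-3p: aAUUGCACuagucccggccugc
The strands of mir-279 and mir-996, neighbours in 1 cluster, have the same seed, which is also that of mir-286. Those of mir-92a and mir-92b share theirs with mir-310, mir-311, mir-312 and mir-313. The seed of mir-995 recurs in mir-998 and mir-285, and that of mir-275 in mir-306. Bantam, let-7, mir-305, mir-375, mir-282, mir-34 and mir-277 share their seeds with no other annotated microRNA of the 260.

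The peaks below show the places in which Hr83-GFP was found, a promoter far from the hairpin, the hairpin itself, and the start of a coding host. They are printed on the plus strand of dm6 from the RefSeq genome, Release 6. The first lies just before the annotated start of lncRNA:CR31044, the primary transcript of mir-279 and mir-996, at chr3R:29214332-29214547, and the capitals mark the summit and 4 bases to either side. The bantam peak lies upstream of the first start of lncRNA:CR43334 at chr3L:628156-628411 and is marked in the same way. The mir-275 peak, in and beyond the last exon of lncRNA:CR43857 at chr2L:7425720-7425975, has the bases of the hairpin in capitals. So has the mir-4962 peak, which lies over a coding exon and the following intron of Tlk at chrX:3777309-3777564. The Cdk2 peak is shown up to the Cdk2 start at chr3R:20735415-20735622, with the motif TATCGATA in capitals.
mir-279 and mir-996 start: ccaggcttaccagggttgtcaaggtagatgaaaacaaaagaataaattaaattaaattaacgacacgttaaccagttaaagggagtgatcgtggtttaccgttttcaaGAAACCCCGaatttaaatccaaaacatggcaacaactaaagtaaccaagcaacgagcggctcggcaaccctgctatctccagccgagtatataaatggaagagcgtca
bantam start: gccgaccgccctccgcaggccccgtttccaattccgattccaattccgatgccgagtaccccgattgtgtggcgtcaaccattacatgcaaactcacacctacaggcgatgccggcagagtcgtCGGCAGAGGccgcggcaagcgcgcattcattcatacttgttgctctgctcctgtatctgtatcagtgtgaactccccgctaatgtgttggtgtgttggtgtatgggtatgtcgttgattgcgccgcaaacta
mir-275 hairpin: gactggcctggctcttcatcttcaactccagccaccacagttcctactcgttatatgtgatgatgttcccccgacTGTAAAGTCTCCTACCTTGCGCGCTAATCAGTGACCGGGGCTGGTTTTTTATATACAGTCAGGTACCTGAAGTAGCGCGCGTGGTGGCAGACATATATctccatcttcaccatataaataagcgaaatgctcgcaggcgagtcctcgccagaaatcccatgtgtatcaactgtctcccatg
mir-4962 hairpin: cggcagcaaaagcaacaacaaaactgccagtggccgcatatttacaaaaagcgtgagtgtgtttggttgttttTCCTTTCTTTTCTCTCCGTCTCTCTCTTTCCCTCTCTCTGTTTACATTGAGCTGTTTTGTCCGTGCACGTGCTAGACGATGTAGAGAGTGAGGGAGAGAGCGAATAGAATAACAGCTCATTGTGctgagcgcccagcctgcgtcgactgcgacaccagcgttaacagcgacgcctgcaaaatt
mir-995 and Cdk2 start: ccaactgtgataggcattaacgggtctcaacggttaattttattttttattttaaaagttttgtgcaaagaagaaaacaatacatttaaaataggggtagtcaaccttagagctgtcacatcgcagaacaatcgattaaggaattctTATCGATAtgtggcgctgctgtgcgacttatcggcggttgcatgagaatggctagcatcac
Among these peaks the bantam start is the richest in G and C, at 55.5%, and the stretch before Cdk2 the poorest, at 38.9%.

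Few microRNA hairpins had an Hr83-GFP peak beside them. In the list thresholded by the authors on the irreproducible discovery rate (IDR), which compares the replicates, a summit lay within 1 kb of 26 of the 203 loci, 12.8% (95% Clopper-Pearson interval 8.54 to 18.2, counting error only). Not every peak of that list was found in the relaxed lists of both replicates. Inside a host gene, 23 of 175 loci had a summit, 13.1% (8.52 to 19.1). The same distance from a summit was met by 7.64% of all genome positions inside coding or long noncoding genes. Of the intergenic loci, 3 of 28 had a summit, 10.7% (2.27 to 28.2), beside 3.93% of the positions outside such genes. Both microRNA classes thus stood above their genome positions, and for the intergenic class the background lies inside the interval. A cluster was counted through any of its hairpins, which is a wider target than 1 genome position. With every gene counted by itself, the shares were 24 of 209 in hosts, 11.5%, and 5 of 51 intergenic, 9.8%. No interval was computed for these.

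**Figure D1:**
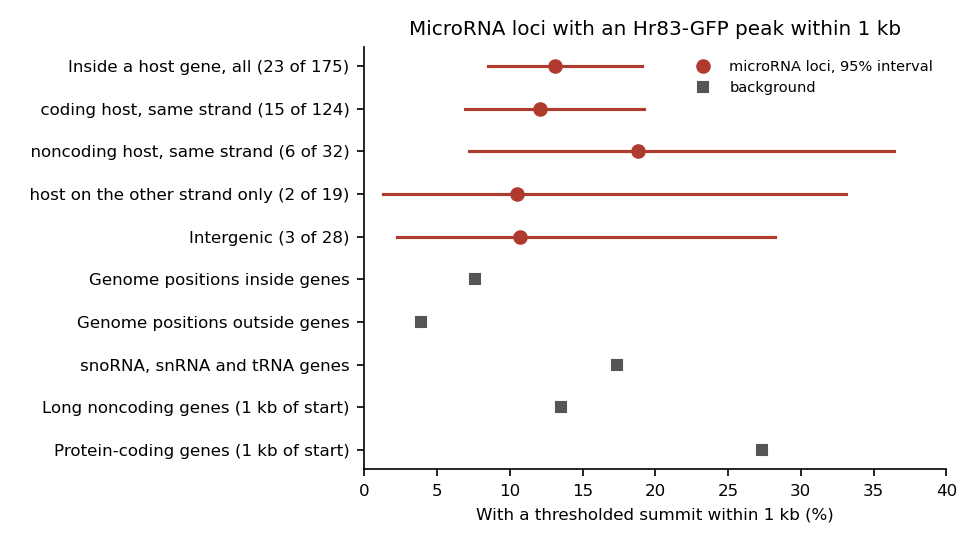
Percent of microRNA loci (circles, lines are 95% Clopper-Pearson intervals) with a thresholded summit within 1 kb, by place, above the same percent for genome positions and other genes (squares). MicroRNA loci lie between 10.5% and 18.8%, against 3.93% to 27.3% in the backgrounds.

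Other genes give the scale of these shares. Gene by gene, a summit within 1 kb was found for 17.4% of snoRNA, snRNA and tRNA genes and 11.2% of microRNA genes. It was found within 1 kb of a start for 13.5% of long noncoding genes and for 27.3% of protein-coding genes, and this last share lies above the interval of all microRNA loci. Among the hosted loci, 6 of 32 in a noncoding host of the same strand had a summit, 18.8% (7.21 to 36.4). In a coding host of the same strand, 15 of 124 had one, 12.1% (6.93 to 19.2), and with a host on the other strand alone, 2 of 19, 10.5% (1.3 to 33.1). These intervals overlap widely, and no order among the classes can be read from them. Clusters had a summit at 4 of 22 loci and loci of 1 gene at 22 of 181. Hairpins whose ends coincided within 3 bp with those of an intron, as mirtrons do, had one at 4 of 33 loci, beside 9 of 60 for other intronic hairpins and 9 of 64 for those in exons.

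The strongest microRNA summit lay at mir-14, which restrains cell death and acts in fat metabolism and in the ecdysone response. Its hairpin lies in an exon of lncRNA:CR43651 at chr2R:9553762-9553824, and the summit, 931 bp upstream of the hairpin, fell 13 bp from the start of that transcript. The signal was 213.5, rank 275 of the 4797 thresholded peaks. In the separate lists of the replicates, each of 30000 regions at a relaxed threshold, the same summit had a signal of 103 and rank 241 in replicate 3, and a signal of 90.1 and rank 851 in replicate 4. It was thus among the stronger summits in either replicate. Signals were not normalized between lists, so only ranks can be set side by side. A further summit 312 bp upstream of the hairpin had a signal of 109, with rank 3560 in replicate 3 and 1677 in replicate 4.

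The summits at mir-8 and mir-282 followed among the noncoding hosts. The microRNA mir-8 promotes insulin signalling and body growth from the larval fat body. Its summit lay 748 bp upstream of the hairpin and 5 bp from a start of lncRNA:CR43650, with a signal of 138 and rank 988. It ranked 2196 in replicate 3 (signal 42.7) and 633 in replicate 4 (signal 101). At mir-282 on 3L, 3 thresholded summits lay within 1 kb of the hairpin. The strongest (signal 138, rank 986) lay 72 bp from a start of lncRNA:CR43626 and ranked 941 and 1374 in replicates 3 and 4. Another, 15 bp downstream of the hairpin, had a signal of 123 and ranked 1203 and 1580 in replicates 3 and 4. The weakest, 687 bp downstream with a signal of 71.5, ranked 1689 in replicate 3 and was not found in the list of replicate 4, the sole microRNA summit of which this was so.

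The other 3 loci in noncoding hosts were mir-375 and the clusters of mir-275 and mir-34. At mir-375, whose mammalian relative is known for insulin secretion in the mouse pancreas, the summit lay 282 bp upstream of the hairpin and 143 bp from the start of lncRNA:CR45345 (signal 110, rank 1685). Replicate 3 gave it rank 2530 and replicate 4 rank 1545. The cluster of mir-275 and mir-305, of which mir-305 acts in intestinal stem cells, had 2 summits within 1 kb. The stronger lay 446 bp upstream (signal 115, rank 1521) and ranked 698 in replicate 3 and 4027 in replicate 4. The other lay inside the mir-275 hairpin (signal 96.3, rank 2277) with the replicates in the opposite order, 6441 in replicate 3 and 1997 in replicate 4. The cluster of mir-317, mir-277 and mir-34 had a summit between its last 2 hairpins, 570 bp past mir-277, which acts on the breakdown of branched-chain amino acids, and 245 bp before mir-34, known for its part in the ageing brain. It had a signal of 96.6 (rank 2262), ranked 3003 in replicate 3 and 2171 in replicate 4, and lay 6930 bp from the nearest annotated start, that of lncRNA:CR43459.

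Among the coding hosts the strongest summit lay inside the hairpin of mir-4962, which sits in an intron of Tlk, the gene of the Tousled-like kinase, on X. It had a signal of 154 and rank 740, with rank 1354 in replicate 3 and 504 in replicate 4, and lay 1378 bp from the nearest annotated start. A weaker summit (signal 86.4, rank 2793) followed 816 bp downstream of the hairpin. At mir-4912, in an intron of the farnesyltransferase gene Fnta, the summit lay 739 bp downstream and away from any start, with a signal of 149.5 and rank 804, and with ranks of 588 in replicate 3 and 1654 in replicate 4. Neither summit was at a promoter in the annotation. At mir-2501 in Nulp1 the summit lay 728 bp upstream of the hairpin and 11 bp from the host's start (signal 145, rank 867), and here the replicates differed, with rank 3081 in replicate 3 and 570 in replicate 4.

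Further summits in coding hosts lay at or near host promoters. In Fatp3, a fatty acid transporter gene, 3 summits surrounded mir-4985, with signals of 131, 86.9 and 85.0. The strongest lay 633 bp from the nearest start and ranked 1069 in replicate 3 and 2997 in replicate 4, while the others lay 26 and 129 bp from a start. The summit at mir-9374 lay 359 bp upstream of the hairpin in Hr39, itself a nuclear receptor gene, and 692 bp from a start (signal 107, rank 1802, with 2230 in replicate 3 and 1781 in replicate 4). At mir-4975 it lay 129 bp from a start that CG45092 shares with chk, a monocarboxylate transporter gene (signal 106, rank 1866, with 1659 in replicate 3 and 2894 in replicate 4). The summit within 1 kb was thus at the host's promoter at mir-4975, and beyond 500 bp of one at mir-9374. A stronger thresholded summit (signal 156, rank 710) lay 24 bp from the Hr39 start. It was 1027 bp from the mir-9374 hairpin, just beyond 1 kb, and was not counted at that locus.

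Hosts with general cell functions followed. The summit near mir-308, a microRNA of the K box family, fell 24 bp from the start of its host RpS23, a ribosomal protein gene (signal 104, rank 1923, with 3778 in replicate 3 and 2133 in replicate 4). A second summit lay 834 bp past the hairpin (signal 96.6). At mir-3643 the summit fell 84 bp from the start of OstDelta, a gene of the oligosaccharyltransferase (signal 101, rank 2049, with 3747 in replicate 3 and 2151 in replicate 4). At mir-4949, in an exon of the ATP synthase gene ATPsynC, it fell 57 bp from the host's start (signal 100.3, rank 2096, with 2079 in replicate 3 and 2221 in replicate 4). All 3 of these summits were the host's own promoter peak, upstream of the hairpin.

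The other 8 hosted loci had their strongest summits between signals of 66.3 and 96.6 and ranks 2263 and 4465, with ranks of 930 to 10481 in replicate 3 and 2528 to 9812 in replicate 4. They were mir-995 in the cell cycle kinase gene Cdk2, mir-986 in the cytochrome gene Cyp4e2, mir-2283 in the histone demethylase gene Kdm3 and CG8176, mir-92a and mir-92b in jigr1, mir-9377 in the mRNA decay gene Tis11, and mir-3645 in the myosin light chain gene Mlc-c. The summit in jigr1 lay 417 bp downstream of mir-92a, and mir-92b itself had none within 1 kb. In mir-4957 and mir-980 the host lay on the other strand. The summit of mir-4957 was 37 bp from the start of its opposite-strand host Top1, the topoisomerase gene, and ranked 10481 in replicate 3 against 3320 in replicate 4. The summit of mir-980, a suppressor of memory formation, was 44 bp from the start of the transcription factor gene ewg. The summit of mir-3645 was the weakest and ranked 3243 in replicate 3 against 9812 in replicate 4. Near mir-2283 a stronger summit (signal 299, rank 109) lay beyond 1 kb, 1543 bp from the hairpin. It was 26 bp from a start shared by Kdm3 and CG8176, and ranked 224 in replicate 3 and 64 in replicate 4.

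The 3 intergenic loci with a summit were unlike each other. At mir-4981 on 2R the summit lay 834 bp upstream of the hairpin, 660 bp from the start of CG14762, with a signal of 164 and rank 625, the second strongest of all microRNA summits. Replicate 3 gave it rank 1858 and replicate 4 rank 912. At mir-11182 the summit lay inside the hairpin and exactly on a start of CG5726 (signal 115, rank 1537), with ranks of 1900 in replicate 3 and 1999 in replicate 4. This hairpin thus spans a gene start, and it was counted as intergenic because no host contained it whole. At mir-994 and mir-318, of which mir-318 is known from ovarian follicle cells, it lay 802 bp upstream and 50 bp from the start of CG6325 (signal 72.0, rank 3908), with ranks of 5565 in replicate 3 and 3171 in replicate 4. At mir-11182 and the mir-994 cluster the summit was thus at the start of another gene, and at mir-4981 it was at none.

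**Figure D2:**
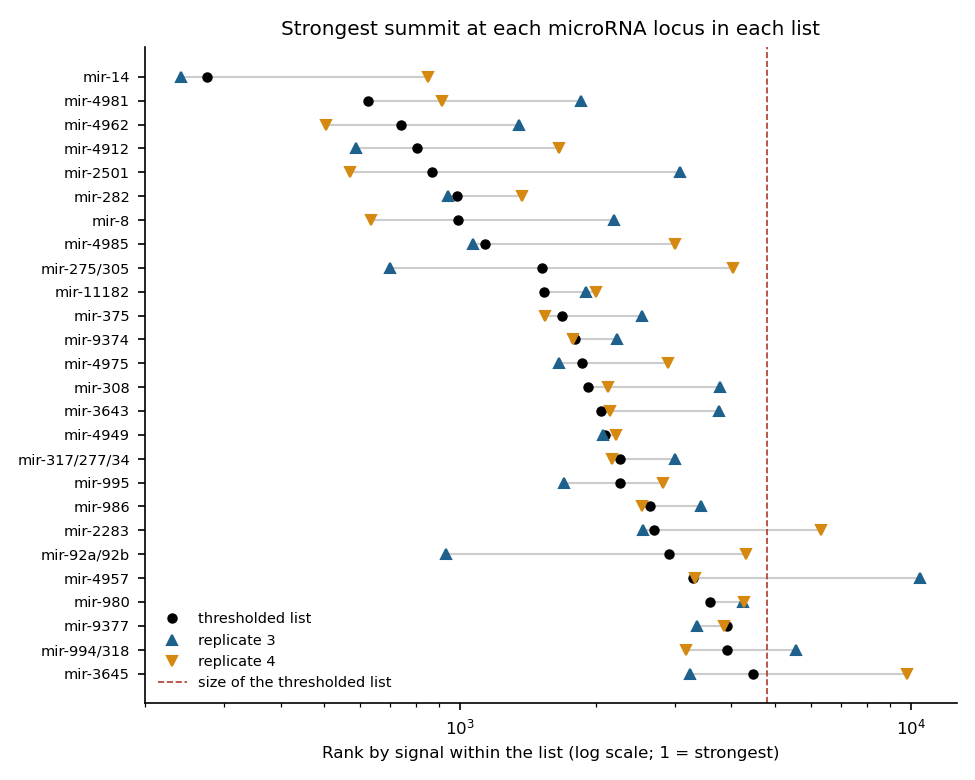
Rank by signal of the strongest summit at each of the 26 loci, on a log scale with rank 1 the strongest, in the thresholded list (circles), in replicate 3 (upward triangles) and in replicate 4 (downward triangles). The dashed line marks rank 4797, the size of the thresholded list, which mir-4957 and the cluster of mir-994 pass in replicate 3 and mir-2283 and mir-3645 in replicate 4.

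In all, 34 summits lay within 1 kb of the 26 loci, with 1 summit at 20 loci, 2 at 4 and 3 at 2. Their signals ran from 66.3 to 213.5 with a median of 101, against a range of 63.3 to 1278 and a median of 93.8 for all thresholded peaks. They took ranks 275 to 4465, and 22 of the 34 were among the 2398 strongest peaks. The highest placed of them was the summit at the mir-14 promoter. Of the 34, all were found in replicate 3 and 33 in replicate 4, and 25 were among the 4797 strongest regions of both. Over the 33 summits found in both, the signals of the replicates had a Spearman's rho of 0.23, given as a description, since all had already passed a threshold on the same replicates. The order of microRNA summits by strength therefore differed between replicates.

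Over all 34, summits lay more often before the hairpin than after it. On the strand of the microRNA, 19 summits were upstream of the nearest hairpin, 11 were downstream and 4 were inside it, at mir-275, mir-4962, mir-9377 and mir-11182. The peak as called covered at least 1 base of a hairpin in 6 cases. A start of a host on the microRNA's own strand lay within 500 bp of 16 summits and another annotated start within 500 bp of 4, that of Top1, host of mir-4957 on the other strand, among them, while 14 were away from any annotated start. Together 20 of 34, 58.8%, were at a start, against 3055 of 4797, 63.7%, of all thresholded peaks. The share at promoters beside hairpins was thus near that of the whole list. The excess before the hairpin lay among the summits at a host start. On the same strand, the first start of a host always precedes a hairpin inside it. Among the 14 summits away from starts, those upstream did not outnumber those downstream.

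**Figure D3:**
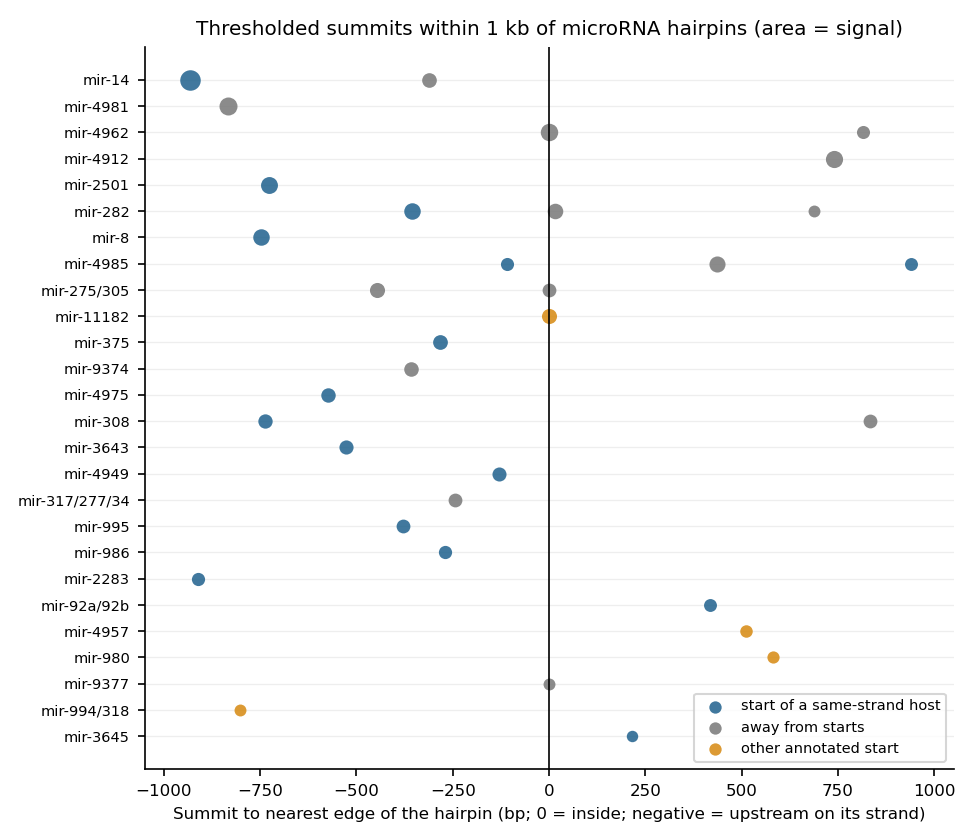
Distance in bp from each of the 34 thresholded summits to the nearest edge of the hairpin, upstream to the left and 0 for summits inside it, with loci ordered from the strongest summit at the top. The point area is proportional to the signal and the colour gives the annotated start within 500 bp, if any, with 16 at the start of a same-strand host, 4 at another annotated start and 14 away from starts.

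Because hairpins often lie far from the promoter that transcribes them, the starts of the hosts were examined as well. A summit lay within 500 bp of a start for 55 of 128 protein-coding hosts, 43% (34.3 to 52), against 24.2% of all protein-coding genes. Among noncoding hosts it did so for 11 of 37, 29.7% (15.9 to 47), against 8.87% of all long noncoding genes. Some coding hosts, such as Kdm3 with CG8176 and chk with CG45092, share a summit. Each was counted, and the interval treats them as separate. Several annotated starts were found for 72 of 128 coding hosts, against 3699 of 13945 coding genes, and for 14 of 37 noncoding hosts, against 129 of 2459 long noncoding genes. The shares were higher with several starts. With a single annotated start, coding hosts had 28.6% (17.3 to 42.2) beside 18.4% for all coding genes, and with several starts 54.2% (42 to 66) beside 40.5%. For noncoding hosts the values were 26.1% (10.2 to 48.4) beside 8.15% with a single start, and 35.7% (12.8 to 64.9) beside 21.7% with several. Expression of the hosts in these larvae was not measured here, and its part in the shares was not tested.

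Counted by locus, 63 of 156 loci with a host on their own strand, 40.4% (32.6 to 48.5), had a summit at a start of that host, and in 19 of these a summit also lay within 1 kb of the hairpin. A summit at either place was found for 65 of 156 loci. For most hosted microRNAs with a peak at the host's promoter, the hairpin itself was therefore beyond 1 kb of any thresholded summit.

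The strongest host promoter among the noncoding hosts was that of mir-279 and mir-996, which restrict carbon dioxide sensing neurons to their proper organ and limit JAK/STAT signalling. The summit lay 118 bp from the start of lncRNA:CR31044 and 1141 bp from the nearest hairpin. It had a signal of 443 and rank 34 of the 4797 peaks, with rank 32 in replicate 3 (signal 232) and rank 52 in replicate 4 (signal 209.9). It was the peak that stood highest in both replicates among all noncoding hosts. The 200 bp around its summit, in the sequence printed as the mir-279 and mir-996 start, hold none of the motifs searched.

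Bantam, which drives tissue growth and blocks the cell death gene hid, had no thresholded summit within 1 kb of its hairpin at chr3L:642208-642288, and the nearest lay 5903 bp away. Weak relaxed regions lay within 1 kb of it, the strongest at rank 14249 in replicate 3 and 18930 in replicate 4. A summit did lie 151 bp from the first start of its primary transcript, lncRNA:CR43334, 13924 bp from the hairpin. There the signal was 134 and the rank 1072, with rank 1028 in replicate 3 (signal 60.1) and 621 in replicate 4 (signal 102). For let-7, the timer of metamorphosis, which forms a cluster with mir-100 and mir-125, the nearest thresholded summit lay 5990 bp from its own hairpin, and no summit lay at the start of the primary transcript lncRNA:let7C. Around the cluster no region of any relaxed list lay within 1 kb either. In the thresholded list the pair thus differed at the promoters, with no summit near either hairpin.

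Of the noncoding hosts of metabolic microRNAs, those of mir-375, mir-275 with mir-305, mir-14 and mir-8 had a summit at a start, and those of mir-184 and mir-277 had none. Of those in the neural and sensory list, the hosts of mir-279 with mir-996, mir-282, mir-bft, mir-9a and mir-276a had a summit, and those of mir-124 and mir-276b had none. The start of lncRNA:CR43626 at mir-282 had a signal of 247 (rank 183), 1869 bp from the hairpin. That of Hsromega, the heat shock RNA that contains mir-4951, had 202 (rank 332). The start of lncRNA:CR43857 at mir-275 and mir-305 had 157 (rank 691, with 864 in replicate 3 and 919 in replicate 4), so that 3 thresholded peaks lay at or along that transcript. The host of mir-bft, also called mir-263a and whose mutants lose bristles, had a signal of 147 (rank 834), and the replicates placed it far apart, at rank 4001 in replicate 3 and 283 in replicate 4. The host of mir-9a, which keeps the number of sense organ precursors in check, had 121 (rank 1366), with ranks of 3960 in replicate 3 and 753 in replicate 4. The host of mir-276a, which acts in memory, had 139.9 (rank 955), 32951 bp from the hairpin.

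**Figure D4:**
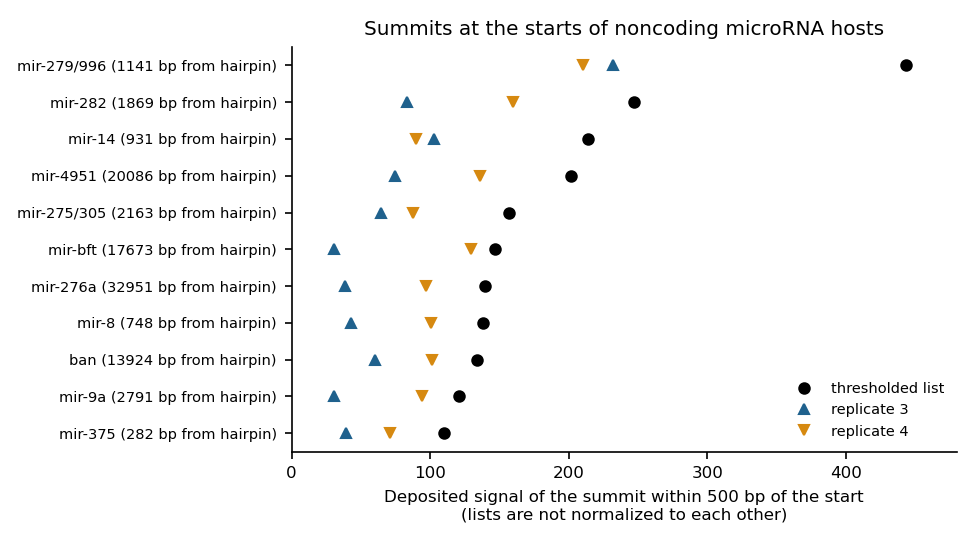
Deposited signal of the summit within 500 bp of a start of the 11 noncoding hosts that had one, in the thresholded list (circles), replicate 3 (upward triangles) and replicate 4 (downward triangles), with the distance from summit to hairpin beside the name. The summit of mir-279 and mir-996 at 443 lies apart from the others at 110 to 247. Signals of different lists are not normalized to each other.

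The starts of 26 noncoding hosts had no thresholded summit within 500 bp. Among them were the hosts of the muscle microRNA mir-1, of the neuronal mir-124, of mir-184, of mir-10, mir-iab-4 and mir-iab-8 in the Hox clusters, of the mir-309 cluster that clears maternal transcripts in the early embryo, and of mir-34 and mir-277. In that cluster a summit lay beside the hairpins of mir-277 and mir-34, and none at the start of their host lncRNA:CR43459. The hairpin of mir-317, in the same cluster, lies outside that host. The thresholded summit nearest to it was 1772 bp away (signal 116, rank 1491).

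Grouped by known role, hits within 1 kb of the hairpin were spread unevenly over small lists, which describe these members and were chosen with results of these data known. Of the loci for insulin, fat and metabolism, 5 of 8 had a thresholded summit, namely mir-375, mir-275 with mir-305, mir-14, mir-8 and the cluster of mir-277, against 12.8% of all loci. The temporal and ecdysone-linked list had 2 of 3, mir-14 and the cluster of mir-34, whose loci also count in the metabolic list. The list for growth and cell death had 2 of 9, mir-14 and mir-308, and the neural and sensory list 1 of 10, mir-282. No locus had one among 14 classical mirtrons, which allows a share of up to 21.4%, nor among 2 muscle loci, 4 Hox loci, 3 testis-enriched clusters and the early embryo cluster. The pooled relaxed list reached 47.3% of all loci. In it the metabolic list had 5 of 8, the neural list 6 of 10, the growth list 5 of 9 and the mirtrons 4 of 14. The Hox list had 3 of 4, the temporal list 2 of 3, the muscle list 1 of 2 and the testis-enriched list 1 of 3. The early embryo cluster had none.

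The relaxed list called on the pooled replicates, which keeps weak regions, reached 96 of 203 loci, 47.3% (40.3 to 54.4). Hosted loci stood at 83 of 175, 47.4% (39.8 to 55.1), beside 35.5% of genome positions inside genes, and intergenic loci at 13 of 28, 46.4% (27.5 to 66.1), beside 20.4% of positions outside them. In the relaxed lists of both replicates, 71 of 203 loci had a region within 1 kb in each, 35% (28.4 to 42). For hosted loci this was 61 of 175, 34.9% (27.8 to 42.4), beside 24.3% of positions inside genes, and for intergenic loci 10 of 28, 35.7% (18.6 to 55.9), beside 13.1% of positions outside them. Of the loci with relaxed regions alone, the strongest in hosts were mir-4974 (pooled signal 60.4, rank 5176), mir-967 (57.1, rank 5637), mir-966 (53.7, rank 6160), mir-4980 (52.0, rank 6472) and mir-4955 (51.1, rank 6633). The strongest intergenic ones were mir-193 (pooled signal 55.3, rank 5931), mir-2496 (52.6, rank 6376), mir-954 (50.7, rank 6697) and mir-4942 (48.6, rank 7136), followed by mir-314 and mir-956, which share 1 region (44.2, rank 8151). All of these lie below the weakest thresholded signal of 63.3. Their replicate ranks are those of the strongest region within 1 kb in each list, which need not be the same region. Of the 5 in hosts, 4 ranked higher in replicate 3 and mir-4955 in replicate 4. The ranks of these 5 were 2573 to 12284 in replicate 3 and 5278 to 10497 in replicate 4. All 6 intergenic ones ranked higher in replicate 4, with ranks of 5332 to 15209 in replicate 3 and 4647 to 8656 in replicate 4.

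The limit of 1 kb left some loci close to the line. Just inside it, the nearest summits lay at 802 bp for mir-994 and mir-318, 834 bp for mir-4981 and 912 bp for mir-2283. Just outside lay those of mir-2493 at 1014 bp (signal 123, rank 1312), mir-281-1 with mir-281-2 at 1019 bp (signal 71.9, rank 3920), mir-2497 at 1080 bp (signal 75.5, rank 3595), and mir-279 with mir-996 at 1141 bp. Of these 7, the strongest by far was the peak of mir-279 and mir-996, which the limit did not count.

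Motifs were searched as exact letters on both strands in the 200 bp around each of the 34 summits. TATCGATA, the element bound by the promoter factor DREF, was found at 5 of 34 summits, 14.7%, against 6.48% of all thresholded summits. Those summits were at mir-11182, mir-3643, mir-995, mir-980 and the cluster of mir-994, and each of the 5 was within 500 bp of a start. GAGAGAG, the element of the GAGA factor, was found at 2, the mir-4962 hairpin and the weaker mir-14 summit, 5.88% against 12%, and GTCACACT, a core promoter element, at 2, the RpS23 start beside mir-308 and the Top1 start beside mir-4957, 5.88% against 3.84%. AAGTCA, a half-site of NR2E receptors, was found at 1, at the ATPsynC start beside mir-4949, 2.94% against 8.65% of all summits. AGGTCA and CACACACA were each found at 0 of 34, which allows up to 8.82%, against 3% and 10.6%. The letters GTCA are shared by GTCACACT and the half-sites, and ACAC by GTCACACT and CACACACA, so matches of these can overlap. No motif of the 6 was found at 24 summits, 70.6%, against 62.3%. A match describes letters in the window and is no evidence of binding by the factor.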

How the data were processed

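Peak lists of Hr83-GFP ChIP-seq in whole larvae were used, with replicates 3 and 4. Per the notes deposited with the samples, the authors called relaxed lists per replicate and on pooled reads against a control alignment, and made the thresholded list by comparing them by IDR. Which aligner and which peak caller they ran is not given in the sources used here. Per peak, the deposited signal is the authors' own score and was used only to rank peaks within a list. Lists on dm6 were used, and lists on dm3 were not. No per-sample column was left unmapped (0), depth is unknown, and intervals are 95% Clopper-Pearson intervals. The upper limit beside a count of 0 is 3 counts divided by the number examined. Both cover counting error only.

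MicroRNA genes came from Ensembl release 115. Hairpins on 1 strand up to 10 kb apart formed a locus. A host was any other coding or long noncoding gene whose span contains the hairpin, and a locus was hosted where at least 1 of its hairpins was. Host starts were counted for hosts on the microRNA's own strand. A locus was called when a summit lay within 1 kb of a hairpin, and a start when within 500 bp. For genome positions, 46 bp, the part of a median hairpin on either side of its centre, were added to the distance. Sequences were read from the RefSeq genome, Release 6, after 481 of 481 RefSeq mature arms were found inside their Ensembl hairpins. Motifs were matched exactly on both strands in 200 bp.

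The text names bantam and let-7, every locus with a thresholded summit within 1 kb (replicate values for the 15 strongest per class, ranges for the rest), the 5 strongest loci per class with relaxed regions alone, and members of the role lists with a summit. Host starts named besides were chosen after their values were seen. Members, lists and motifs were chosen with earlier results of these data known. No p-value was computed: there is 1 group, and loci are not replicates. Alternatives were windows of 0.5, 2 and 5 kb, cluster distances of 1 and 50 kb, other peak lists, other host definitions and either replicate alone. The counting was tested on simulated data. Python 3.11.15, numpy 2.4.6 and scipy 1.17.1 were used.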

Additional observations from a re-analysis of the deposited data

How the results depend on the processing

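The count of 26 loci with a thresholded summit moved most with the distance and the list. With 0.5 kb it was 15 of 203 (14 in hosts, 1 intergenic), and with 5 kb 72 (60 in hosts, 12 intergenic). Genome positions were counted at 1 kb only, so the counts at other distances have no background beside them. In the pooled relaxed list the count was 96 (83 in hosts, 13 intergenic). The 3 intergenic loci became 5 with 2 kb, 5 when every gene was counted by itself, 5 when hosts had to be on the same strand, and 9 when hosts had to be protein-coding, each in a larger set for the last 3. With the 4797 strongest regions of either replicate alone, the count was 28 to 29, in hosts 25 to 26 and for intergenic loci 2 to 4. Replicate 3 shared 24 of the 26 loci and replicate 4 also shared 24, with 22 common to all 3 lists. The other alternatives to these counts (2 kb for all and hosted loci, any base of the peak, the stronger peaks, other cluster distances, and for hosted loci the other host definitions and single genes) stayed within 1.5 times.

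The share of summits at starts, 58.8%, was 57.1% to 58.5% with either replicate alone and 50% among the stronger peaks, alternatives that were chosen after seeing the data. Of the 26 loci, 12 ranked better in replicate 3 than in the thresholded list and 9 in replicate 4. No paired analysis was possible because the study holds 1 group. The depth is unknown, so a locus with no summit may lie below detection, and the background of the antibody in untagged larvae was not analysed here.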
